A study of Homo sapiens with 8 samples.

Results

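The 32 genes described here make and control cholesterol and fatty acids in the cell, and they were chosen by name as genes of the SREBP pathway. All 32 were found among the 18430 genes of the deposited count table, and all 32 were among the 17445 genes that passed the filter on low counts. RNA was sequenced from HCE-T cells, an established human corneal epithelial line, which had formed a barrier during 7 days in the upper channel of a microfluidic device and were then held for 24 h in 1 of 4 conditions. ST was static culture, ST_DCF was static culture with 50 µM of diclofenac (DCF, a non-steroidal anti-inflammatory drug) in the upper channel, AL was the AL stimulus, in which air and medium alternately passed through the upper channel, and AL_DCF was the AL stimulus with 50 µM DCF. Each condition had 2 libraries (n = 2), described by the study as independent biological samples. All 4 conditions shared the cell line and a growth medium with serum, insulin, epidermal growth factor and dimethyl sulfoxide, and the AL stimulus stood in for the drying tear film of dry eye disease. The AL conditions differed from the static ones in moving liquid as well as in air, and these cannot be told apart.

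Cholesterol and fatty acids are both built from acetyl-CoA. The mevalonate arm makes farnesyl pyrophosphate, the squalene arm turns it into cholesterol, and a separate set of enzymes carboxylates, condenses, elongates and desaturates carbon chains into fatty acids. Transcription of most of these enzymes is driven by SREBP-1 and SREBP-2, membrane proteins that SCAP carries from the endoplasmic reticulum to the Golgi for cleavage when sterols are low and that INSIG1 and INSIG2 hold back when sterols are high. In epithelial cells the products serve the membranes and the barrier.

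Library totals lay between 32880479 and 46369412 counts, and the lowest count of any of the 32 genes in a library was 692, so counting noise was small. The labels' extraction note names myoblasts while the cell line field names HCE-T. Of 13 listed markers of corneal and stratified epithelium 11 were measured. Their summed level ran from 4410 to 4529 CPM for ST and from 4568 to 4915 for ST_DCF. It ran from 2061 to 2166 for AL and from 1857 to 1922 for AL_DCF. CPM are counts of a gene scaled to the normalized size of its library. Over all libraries KRT8 (932 to 2095 CPM), KRT18 (575 to 1477) and KRT19 (189 to 745) reached the highest levels. KRT14 (0.291 to 1.28 CPM), TP63 (0.328 to 1.05) and ALDH3A1 (0.57 to 1.14) were about as low as the myoblast markers given below. PAX6 ran from 9.02 to 14.5 CPM. KRT3 and KRT12, which define corneal epithelium, were not analysed here because the table lists neither. The study reported immunofluorescence staining of the CK12 protein in HCE-T barriers in the device. Of 8 myoblast markers 3 were listed, with a sum of 2.84 to 4.30 CPM in every library, and MYOD1, MYF5, MYOG, ACTC1 and PAX7 were not listed. The 32 genes together took 0.577% to 0.700% of the counts of a library. In bulk samples such as these, fewer cells of a type and less RNA per cell cannot be told apart.

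In ST the 32 genes spanned levels from 12.6 TPM for SC5D to 551 TPM for FDPS, where TPM are the authors' length-scaled values and so allow genes to be compared. The highest mean levels were those of FDPS, which makes farnesyl pyrophosphate (551 ± 9.61 TPM, SD, n = 2), ACAT2, the cytosolic thiolase that starts the mevalonate arm (482 ± 3.05 TPM), and SCD, which puts the first double bond into saturated fatty acids (356 ± 21.8 TPM). FDFT1, the squalene synthase, and DHCR7, which acts last in one route to cholesterol, followed at 260 ± 18.9 and 256 ± 5.58 TPM, a difference within the spread of the replicates. SREBF2, which encodes SREBP-2, was at 129 ± 0.0621 TPM and SREBF1, which encodes SREBP-1, at 49.5 ± 4.31 TPM. The lowest levels were those of SC5D, a late sterol desaturase, INSIG2 at 17.8 ± 1.13 TPM and ELOVL6, the elongase of palmitate, at 24.2 ± 0.255 TPM.

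RefSeq promoters on GRCh38.p14, from 250 bases before to 50 after a start, were at hand for 28 of the 32 genes, and ACAT2, FASN, FDFT1 and SQLE had none in the table used. They are shown because SREBP drives transcription of most of the enzymes among the members. SREBP binds the sterol regulatory element, and the nuclear factor NF-Y, its usual partner, binds the CCAAT box. The sterol element TCACNCCAC was found, on either strand, in the window of 1 of 28 members, SREBF2, against 1.45% of the 13022 genes with a promoter. It began 133 bases before the start, with a CCAAT box read on the opposite strand close by. The stretch lies at chr22:41832942-41833010 on the plus strand, and the capitals mark the element.
SREBF2: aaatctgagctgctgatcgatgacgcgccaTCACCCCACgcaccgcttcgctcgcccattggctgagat

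CCAAT, on either strand, was found for 20 of 28 members (71.4%) against 42.1% of all genes, GGGCGG, the GC box, for 27 (96.4%) against 74.2%, and CACGTG, the E-box, for 4 (14.3%) against 12.1%. Of the 20 members with a single start, 13 held CCAAT (65%) against 37.1% of the genes with a single start. A match is a description of the letters in these windows and not a site in use. The boxes nearest the start of the genes whose levels are described most fully are shown next in capitals, as CCAAT or as ATTGG where the box reads on the opposite strand. They lie at chr21:46228900-46228944 for LSS (minus strand), chr11:61816389-61816433 for FADS2, chr4:165327615-165327659 for MSMO1, chr10:100347027-100347071 for SCD, chr1:155308795-155308839 for FDPS and chr7:155297688-155297732 for INSIG1 (all plus strand). FADS1 and NPC1 had no CCAAT in their windows.
LSS: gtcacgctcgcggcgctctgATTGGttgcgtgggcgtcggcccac
FADS2: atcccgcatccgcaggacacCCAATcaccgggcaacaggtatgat
MSMO1: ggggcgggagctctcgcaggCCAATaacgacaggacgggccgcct
SCD: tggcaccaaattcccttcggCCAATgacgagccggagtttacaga
FDPS: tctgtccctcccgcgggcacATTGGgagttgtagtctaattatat
INSIG1: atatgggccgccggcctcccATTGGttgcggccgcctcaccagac

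Changes in these genes were small. Across the 6 comparisons, 9 of the 32 genes were called in at least 1, meaning that the adjusted p of edgeR's quasi-likelihood test was under 0.05, 23 were called in none, and the largest log2 fold change, in either direction, was 0.70. In AL against ST, 3 members were higher, where 7.63% of all genes tested were called higher, and 1 was lower, where 10.3% of all genes were called lower. These shares of 3 and 1 of 32 are near or below the background. Of the 32 genes, 23 lay above 0 (50% of all genes tested), and their median log2 fold change was 0.08 against 0.00 over all genes tested. The median was 0.01 without AL replicate 1 and 0.13 without AL replicate 2, so AL replicate 1 set most of it.

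The smallest adjusted p was that of LSS, the lanosterol synthase, which closes squalene into the first sterol. LSS (gene identifier 4047, chromosome 21 of GRCh38 from 46188446 to 46228774) had 105 and 110.5 CPM in the ST libraries and 177 and 174 CPM in the AL libraries. Both AL libraries lay well above both ST libraries. Its log2 fold change was 0.70 ± 0.0882 (SE, adjusted p = 0.000244), a fold of 1.63. FADS2, the delta-6 desaturase of polyunsaturated fatty acids (gene identifier 9415, chromosome 11 from 61816203 to 61867354), had 237 and 232 CPM in ST and 341 and 302 CPM in AL. Its groups did not overlap either, and the log2 fold change was 0.45 ± 0.0800 (adjusted p = 0.0024). LSS shares positions with the small nucleolar RNA SNORD159 and FADS2 with FADS1, and whether the counting used strand is not given in the sources used here, so their values carry that uncertainty.

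NPC1, which moves cholesterol out of late endosomes and lysosomes (gene identifier 4864, chromosome 18 from 23506184 to 23586506), was at 288 and 292 CPM in ST and at 429 and 393 CPM in AL. The log2 fold change was 0.50 ± 0.0939 (adjusted p = 0.0035), with no overlap between the groups. Without AL replicate 1 it was 0.44 (adjusted p = 0.0502), and the call was lost. NPC1 overlaps RMC1 in the annotation.

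MSMO1, the methylsterol monooxygenase that strips methyl groups from sterols after lanosterol (gene identifier 6307, chromosome 4 from 165327669 to 165343164), was the 1 member called lower in AL. It had 138 and 129 CPM in ST and 116 and 86.7 CPM in AL. The AL libraries were both below ST but differed from each other more than the ST libraries did. The log2 fold change was −0.40 ± 0.120 (adjusted p = 0.0398), and it was −0.62 without AL replicate 1 and −0.20 without AL replicate 2. The call was lost without AL replicate 2 (adjusted p = 0.323), ST replicate 1 (0.217) or ST replicate 2 (0.111). LSS and MSMO1 thus stood on opposite sides within the same arm, whose 11 genes had a median log2 fold change of 0.04. More members were called in AL without AL_DCF replicate 2 than with all libraries, and so were more of all genes tested. The epithelial marker sum given above was lower in AL than in ST, and of its 11 measured markers 7 were called lower and 1 higher. The sum of fibroblast and keratocyte markers, with 6 of 9 listed genes measured and LUM, DCN and KERA not listed, was 19.3 and 24.1 CPM in ST and 31.2 and 81.2 CPM in AL. Of the 6 measured fibroblast and keratocyte markers, 4 were called higher in AL and 0 lower. The part of either set of markers in these results was not tested.

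**Figure D1:**
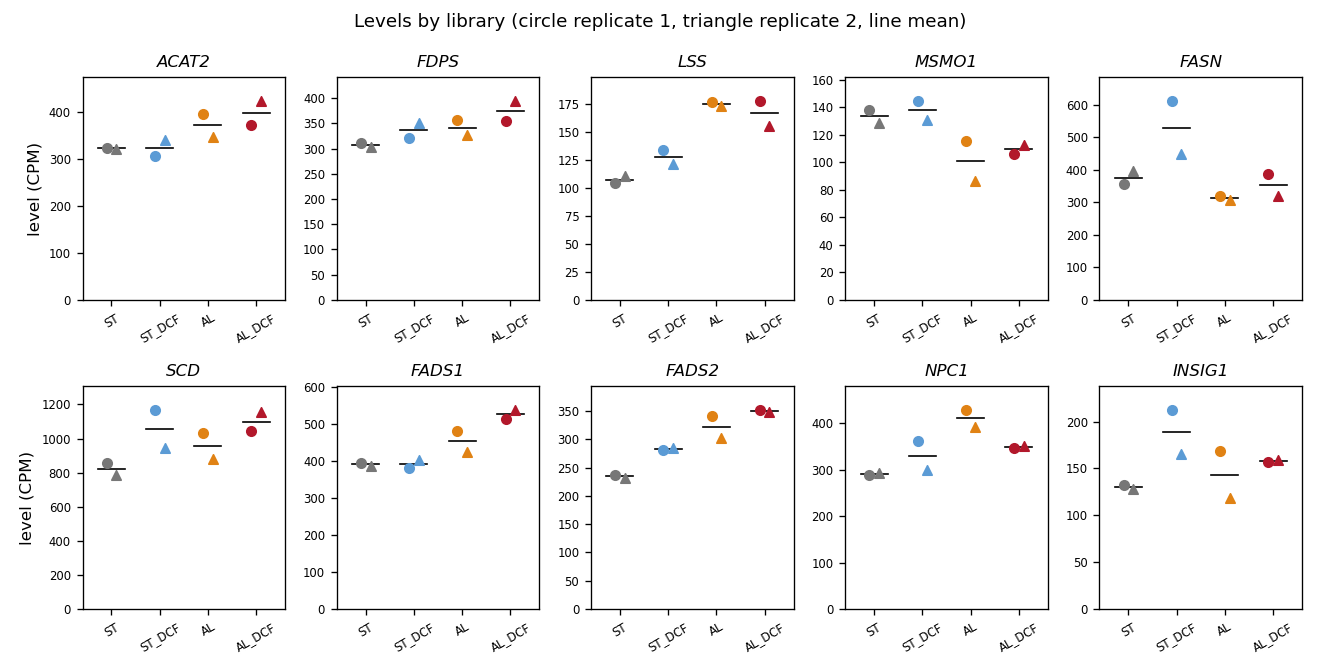
Levels in CPM (vertical axes, from 0) of the 9 members called in at least 1 comparison and of INSIG1, by condition (horizontal axes). Circles are replicate 1, triangles replicate 2 and lines the mean of the 2 libraries. LSS lay at 105 and 110.5 CPM in ST and at 177 and 174 CPM in AL, while the INSIG1 libraries of AL lay far apart at 168 and 118 CPM.

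When the AL stimulus was combined with DCF, FADS1, FADS2, SCD, LSS, FDPS and ACAT2 were called higher than in ST. In AL_DCF against ST, 6 members were called higher, where 8.49% of all genes were, and 0 of 32 were called lower, where 9.83% of all genes were. At an unadjusted p under 0.05 in edgeR's quasi-likelihood test 11 were higher, where 15.5% of all genes were, and 1 was lower, where 16.5% of all genes were. The 1 was MSMO1, which edgeR's exact test called lower (adjusted p = 0.0177) while DESeq2 and limma called 0 lower. The member median was 0.175, and 26 of 32 lay above 0 (50% of all genes tested). AL and AL_DCF are both compared with the same ST libraries, so the values of a gene in these comparisons are not independent of each other. Of the 11 measured epithelial markers, 7 were called lower in AL_DCF than in ST and 7 lower than in ST_DCF, with 0 higher in either. Their part in the members' values was not tested.

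The desaturases FADS2 and FADS1 were among the 6. FADS2 was at 352 and 348 CPM in AL_DCF, above both ST libraries (log2 fold change 0.58 ± 0.0801, adjusted p = 0.000527). FADS1, the delta-5 desaturase that acts after FADS2 (gene identifier 3992, chromosome 11 from 61799627 to 61817003), had 395 and 386 CPM in ST and 514 and 537 CPM in AL_DCF. Its AL libraries, at 481 and 424 CPM, lay between those of ST and AL_DCF. The log2 fold change of FADS1 in AL_DCF was 0.43 ± 0.0833 (adjusted p = 0.00446), and the call was lost without ST replicate 2 (adjusted p = 0.0649). SCD (gene identifier 6319, chromosome 10 from 100347233 to 100364826) had 857 and 787 CPM in ST and 1046 and 1153 CPM in AL_DCF (log2 fold change 0.42 ± 0.113, adjusted p = 0.0244). All 3 fatty acid desaturases among the members, SCD, FADS1 and FADS2, were thus called higher in AL_DCF than in ST. For SCD the call was lost without ST replicate 1 (adjusted p = 0.0839), ST replicate 2 (0.199) or AL_DCF replicate 2 (0.108).

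On the sterol side, LSS was at 178 and 156 CPM in AL_DCF, again above both ST libraries (log2 fold change 0.63 ± 0.0882, adjusted p = 0.000539). FDPS (gene identifier 2224, chromosome 1 from 155308866 to 155320665) had 312 and 304 CPM in ST and 355 and 394 CPM in AL_DCF, and its log2 fold change was 0.28 ± 0.0862 (adjusted p = 0.0406). ACAT2 (gene identifier 39, chromosome 6 from 159762045 to 159779112) had 325 and 322 CPM in ST and 373 and 424 CPM in AL_DCF, and its log2 fold change was 0.30 ± 0.0955 (adjusted p = 0.0486). Groups did not overlap for either gene, but the calls of FDPS and ACAT2 were lost without either ST library, either AL library or AL_DCF replicate 2, with adjusted p between 0.0635 and 0.238. With the replicate number as a block both calls were lost as well (adjusted p = 0.0563 for FDPS and 0.0624 for ACAT2). ACAT2 overlaps TCP1 and SOD2, and FDPS overlaps RUSC1-AS1. MSMO1 was at 106 and 113 CPM in AL_DCF, below both ST libraries, but its log2 fold change of −0.28 did not pass the test (adjusted p = 0.124). Fewer members were called without ST replicate 1 or ST replicate 2, and so were fewer of all genes tested.

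**Figure D2:**
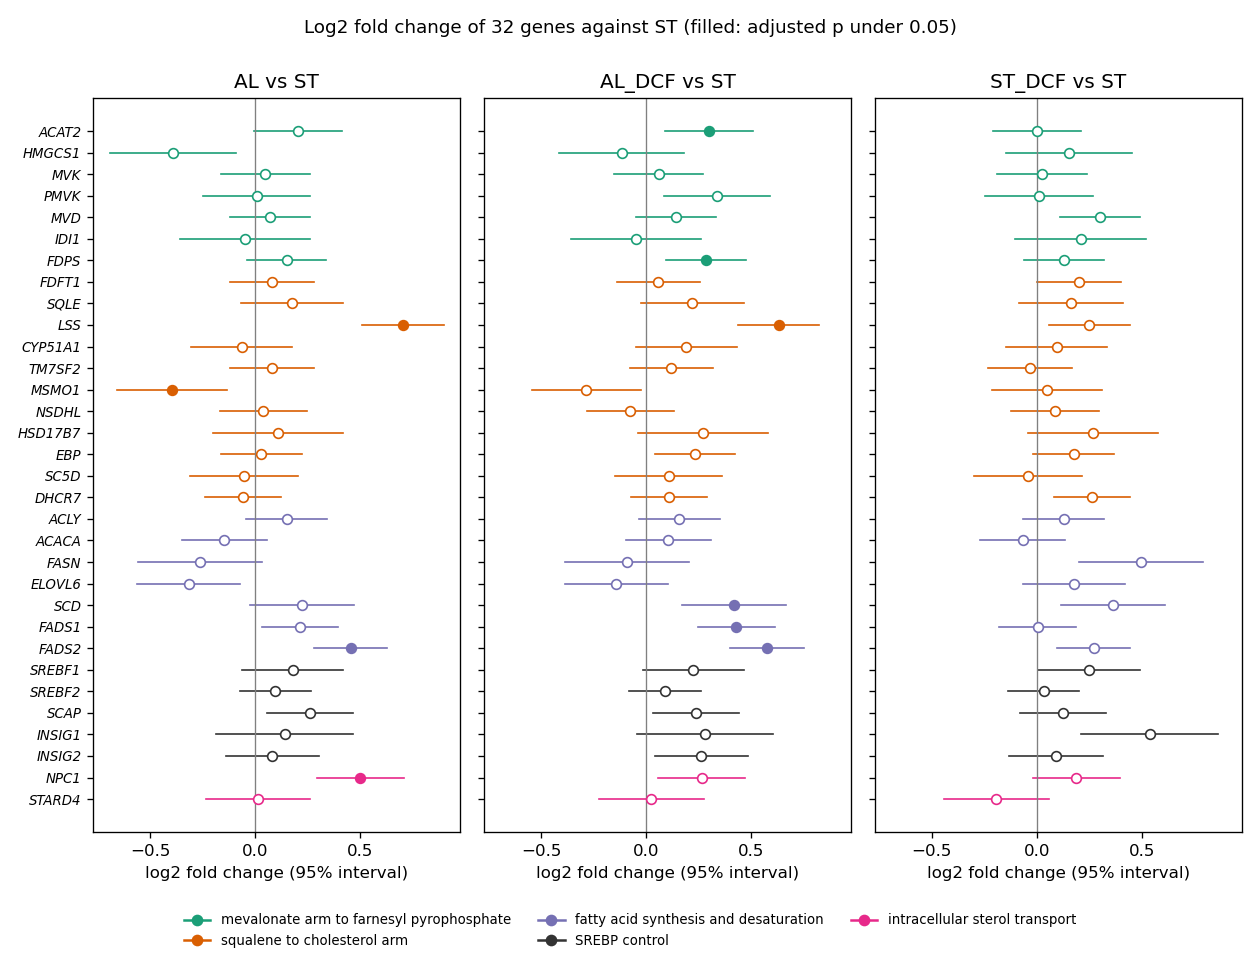
Log2 fold change of each of the 32 genes (rows, grouped by role) in AL, AL_DCF and ST_DCF against ST (horizontal axes), with the 95% interval of the fit as a line and filled points for an adjusted p under 0.05. Filled points number 4 in AL, 6 in AL_DCF and 0 in ST_DCF, where 28 of 32 points lie to the right of 0.

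Within the drug, AL_DCF against ST_DCF asks what the AL stimulus changed in cells that all received DCF. Here 4 members were called higher, where 9.38% of all genes were, and 1 was called lower, where 11.4% of all genes were. FADS1 had 379 and 403 CPM in ST_DCF and its log2 fold change was 0.42 ± 0.0833 (adjusted p = 0.0042). LSS had 134 and 122 CPM in ST_DCF (log2 fold change 0.38 ± 0.0877, adjusted p = 0.01). FADS2 had 281 and 284 CPM in ST_DCF (log2 fold change 0.31 ± 0.0798, adjusted p = 0.0188). LSS and FADS2 were the 2 genes called higher in all 3 comparisons of an AL with a static condition. In AL_DCF against ST_DCF, however, LSS lost its call when the compared pair of conditions was fitted alone (adjusted p = 0.0741), and FADS2 lost it there (adjusted p = 0.115) and with edgeR's exact test (adjusted p = 0.0879). ACAT2 had 306 and 341 CPM in ST_DCF (log2 fold change 0.30 ± 0.0955, adjusted p = 0.0455).

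FASN, the fatty acid synthase that builds palmitate (gene identifier 2194, chromosome 17 from 82078338 to 82098236), was the member called lower. Its levels were 611 and 448 CPM in ST_DCF and 388 and 318 CPM in AL_DCF. The log2 fold change was −0.59 ± 0.135 (adjusted p = 0.0103). FASN stood at 357 and 395 CPM in ST and at 320 and 308 CPM in AL, so ST_DCF replicate 1 was the highest of the 8 libraries and AL_DCF overlapped ST. Without ST_DCF replicate 1 the log2 fold change was −0.35 (adjusted p = 0.0633), and without AL_DCF replicate 2 it was −0.45 (adjusted p = 0.0783). FASN overlaps SNORD134 in the annotation. FADS2 lost its call without ST replicate 1 (adjusted p = 0.052) or ST_DCF replicate 1 (0.0524), and ACAT2 in each of 6 cases with 1 library left out, with adjusted p from 0.0591 to 0.232. Fewer members were called without ST replicate 1 or ST_DCF replicate 1, and so were fewer of all genes tested. The member median was 0.06, and it was 0.01 without AL_DCF replicate 2 (0.005).

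With DCF in static culture, most of the members had levels a little above ST, and none passed the test. In ST_DCF against ST, 0 of 32 members were called by edgeR's quasi-likelihood test, where 0.00573% of all genes (1 gene) were called. DESeq2 called 2, FASN and INSIG1, where it called 0.418% of all genes. The exact test of edgeR called 1, INSIG1, where it called 0.538% of all genes, and limma on FPKM called 0. Of the 32 genes, 28 had a log2 fold change above 0 (49.7% of all genes tested), and the member median was 0.14 against −0.001 over all genes. For 21 members the ST_DCF libraries were both higher than either ST library, where 21.3% of all genes did so. At an unadjusted p under 0.05, 9 members were higher, where 5.53% of all genes were, and 0 were lower. The endothelial markers, 5 of 5 measured, summed to 10.8 and 10.6 CPM in ST and 24.6 and 16.9 CPM in ST_DCF, and 0 of 5 were called. Over all libraries CDH5 ran from 1.95 to 19.5 CPM, while PECAM1, VWF, KDR and TIE1 reached at most 2.74 CPM. CD68, the 1 of 5 leukocyte markers measured, was at 54.5 and 56.1 CPM in ST and at 68.9 and 65.4 CPM in ST_DCF. The part of either in these values was not tested.

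These 9 were INSIG1, FASN, SCD, MVD, FADS2, DHCR7, LSS, SREBF1 and FDFT1, and they came from the mevalonate, sterol and fatty acid arms and from the control genes alike. INSIG1, the sterol-sensing anchor of SCAP and itself an SREBP target (gene identifier 3638, chromosome 7 from 155297878 to 155310235), had 133 and 128 CPM in ST and 212 and 165 CPM in ST_DCF (log2 fold change 0.54 ± 0.148, adjusted p = 0.361). For FASN the log2 fold change was 0.49 ± 0.135 with an adjusted p of 0.361. SCD stood at 1167 and 944 CPM in ST_DCF, which gave 0.36 ± 0.113 with an adjusted p of 0.382. In all 3 genes ST_DCF replicate 1 was the higher of the 2 libraries by a wide margin, and both libraries lay above ST. MVD, which decarboxylates mevalonate pyrophosphate, differed by 0.30 on this scale (adjusted p = 0.382), and the remaining 5 genes lay between 0.20 and 0.27 (adjusted p from 0.382 to 0.497).

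The intervals show what size these libraries allow. The 95% interval of the log2 fold change was 0.21 to 0.86 for INSIG1, 0.20 to 0.79 for FASN and 0.11 to 0.61 for SCD, before any adjustment for the number of genes tested. Without ST_DCF replicate 2, FASN passed with 0.70 on the log2 scale and SCD with 0.505, and more of all genes tested were called as well. STARD4, a carrier of cholesterol between membranes, had both ST_DCF libraries below both ST libraries (log2 fold change −0.19, adjusted p = 0.586).

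DCF under the AL stimulus gave no call either. In AL_DCF against AL, 0 of 32 members were called by edgeR's quasi-likelihood test, where 0.355% of all genes were. With the exact test and with DESeq2 0 were called as well, where 2.13% and 1.5% of all genes were. At an unadjusted p under 0.05 there were 6 members, where 12.6% of all genes were, 5 higher and 1 lower. The 5 were PMVK, the phosphomevalonate kinase (log2 fold change 0.33), CYP51A1, the lanosterol demethylase (0.26), ACACA, the acetyl-CoA carboxylase (0.25), FADS1 (0.22) and EBP, a sterol isomerase (0.20), and the 1 lower was NPC1 (−0.24). Their adjusted p lay between 0.265 and 0.367. For 8 members both AL_DCF libraries lay above both AL libraries, where 23.4% of all genes did. Of the 32 genes, 26 had a log2 fold change above 0 (51.3% of all genes tested). The member median was 0.12, 0.21 without AL replicate 1, 0.04 without AL replicate 2 and 0.07 without AL_DCF replicate 2. Its size thus depended on each of these libraries, while it stayed above 0. Of 5 leukocyte markers CD68 alone was measured, and PTPRC, which marks most leukocytes, was not listed. CD68 stood at 41.4 and 38.8 CPM in AL and at 67.2 and 60.4 CPM in AL_DCF and was called higher in AL_DCF, and its part in the members' values was not tested.

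Whether DCF acted differently with and without the AL stimulus was tested as an interaction. None of the 32 members was called (0 by edgeR's quasi-likelihood test and 0 by DESeq2), where 0.0344% and 0.854% of all genes were. In the quasi-likelihood test 3 had an unadjusted p under 0.05, where 11.3% of all genes did. NPC1 had an interaction of −0.42 ± 0.133 on the log2 scale (adjusted p = 0.306). It stood at 361 and 300 CPM in ST_DCF, above ST, and at 346 and 350 CPM in AL_DCF, below AL. LSS had an interaction of −0.32 ± 0.124 (adjusted p = 0.387) and ACACA one of 0.32 ± 0.131 (adjusted p = 0.402). NPC1 passed without ST_DCF replicate 2, with −0.55 (adjusted p = 0.0387). The median interaction over the members was −0.07, and it was 0.05 without AL replicate 1.

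**Figure D3:**
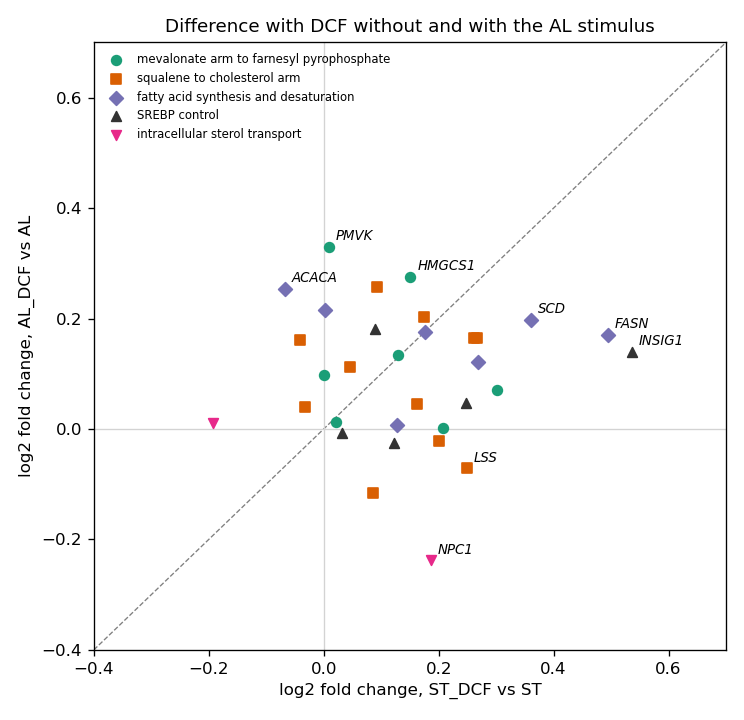
Log2 fold change of each of the 32 genes in ST_DCF against ST (horizontal axis) and in AL_DCF against AL (vertical axis), coloured and shaped by role, with a dashed line where both are equal. INSIG1 and FASN lie furthest right at 0.54 and 0.49, NPC1 lies lowest at −0.24, and none of the 32 departed from the dashed line beyond the test's threshold.

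The genes that control SREBP, SREBF1, SREBF2, SCAP, INSIG1 and INSIG2, were not called in any comparison by edgeR's quasi-likelihood test. SREBF1 (gene identifier 6720, chromosome 17 from 17811334 to 17836986) had 94.8 and 97.6 CPM in ST, 117 and 112 CPM in ST_DCF, 102 and 116 CPM in AL, and 126 and 99.1 CPM in AL_DCF. SREBF2 (gene identifier 6721, chromosome 22 from 41833105 to 41907305) had 295 and 297 CPM in ST, 308 and 298 CPM in ST_DCF, 307 and 326 CPM in AL, and 328 and 302 CPM in AL_DCF. All 6 libraries outside ST lay above both ST libraries for SREBF1 and SREBF2, by small amounts. For SREBF2, ST_DCF replicate 2 at 297.7 CPM barely exceeded ST replicate 2 at 297.4 CPM. In single comparisons with ST, both libraries lay above both ST libraries for 32.3% of all genes in AL, 30% in AL_DCF and 21.3% in ST_DCF. The log2 fold changes from ST ran from 0.18 to 0.25 for SREBF1 and from 0.03 to 0.10 for SREBF2. SREBF1 overlaps RAI1 and SREBF2 overlaps SREBF2-AS1, and SREBF1 counts do not separate its isoforms. Without AL_DCF replicate 2 SREBF1 was called higher in AL_DCF than in ST, at 0.39 (adjusted p = 0.0241).

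SCAP, the escort of SREBP (gene identifier 22937, chromosome 3 from 47413681 to 47477127), had 96.4 and 101 CPM in ST, 106 and 109 CPM in ST_DCF, 110 and 127 CPM in AL, and 124 and 110 CPM in AL_DCF. Its AL libraries lay above ST (log2 fold change 0.26 ± 0.0935, adjusted p = 0.0762), and DESeq2 (adjusted p = 0.0467) and the exact test (adjusted p = 0.00582) called it higher. INSIG1 had 168 and 118 CPM in AL and 157 and 159 CPM in AL_DCF, so that its 2 AL libraries lay on either side of ST. Its log2 fold change in AL was 0.14 ± 0.148 (adjusted p = 0.567) and turned to −0.135 without AL replicate 1. INSIG2, the second anchor (gene identifier 51141, chromosome 2 from 118088471 to 118110997), ranged from 25.1 to 26.9 CPM in ST and from 28.7 to 33.6 CPM in AL_DCF (log2 fold change 0.26 ± 0.101, adjusted p = 0.0954). It was called higher without AL_DCF replicate 1, at 0.37 (adjusted p = 0.0357). INSIG1 in AL_DCF against ST was called higher by edgeR's exact test (adjusted p = 0.0139) and with that pair of conditions fitted alone (0.0321).

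The 2 libraries of AL differed in one direction in most of the members. In AL, 28 of 32 members were higher in replicate 1 than in replicate 2, where 50.0% of all genes were, and the median difference was 0.14 on the log2 scale. All 11 genes of the squalene arm and all 7 of the fatty acid arm stood on the same side, while PMVK, SREBF1, SREBF2 and SCAP stood on the other. The widest gaps, picked after their values were seen, were those of IDI1, the isomerase that makes dimethylallyl pyrophosphate, with 105 and 71.0 CPM, INSIG1, HSD17B7, a sterol ketoreductase, with 26.2 and 18.9 CPM, and HMGCS1, which makes HMG-CoA, with 92.2 and 68.2 CPM. In AL_DCF the split ran the other way and less clearly, with 10 of 32 members higher in replicate 1 and a median of −0.09. It was 17 of 32 in ST and 18 of 32 in ST_DCF.

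Against counting noise alone, the chi-square per member between the 2 libraries was 10.2 for ST, 95.2 for ST_DCF, 88.6 for AL and 54.8 for AL_DCF, and over all genes of the table it was 5.05, 22.2, 8.33 and 22.2. Members are well expressed, and this measure grows with the count. Within ST_DCF the genes furthest apart were fatty acid genes, FASN with a difference of 0.45 and SCD with 0.31, and INSIG1 with 0.36. The fibroblast and keratocyte markers summed to 31.2 CPM in AL replicate 1 and to 81.2 CPM in AL replicate 2, where most members were lower, against 19.3 to 27.1 CPM in the other 6 libraries, and their part in the split was not tested. HMGCS1 was at −0.39 on the log2 scale in AL against ST and was not called (adjusted p = 0.0707). It was called lower by DESeq2 (adjusted p = 0.0262), by edgeR's exact test (0.00167) and with AL and ST fitted alone (0.00897). It was also called lower without AL replicate 1 (−0.63), AL_DCF replicate 1 (−0.40) or AL_DCF replicate 2 (−0.39). The cause was not tested.

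**Figure D4:**
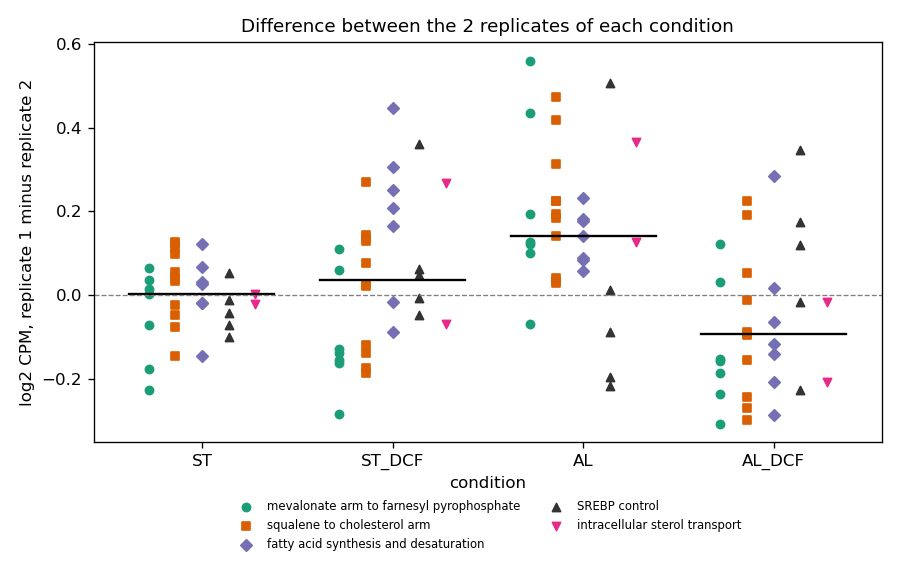
Difference in log2 CPM between replicate 1 and replicate 2 (vertical axis) of each of the 32 genes in each condition (horizontal axis), coloured and shaped by role, with the member median as a black line. The medians lie at 0.14 in AL and at −0.09 in AL_DCF, while the points of ST stay within −0.23 and 0.13.

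By role, the members covered a narrow range. The 7 genes of the mevalonate arm had log2 fold changes from −0.39 to 0.20 in AL, from −0.12 to 0.34 in AL_DCF and from 0.00 to 0.30 in ST_DCF, each against ST. The 11 genes of the squalene arm, LSS included, had medians of 0.04, 0.12 and 0.16 in the same order. The 7 fatty acid genes had medians of 0.15, 0.16 and 0.18, and in AL they split, with the desaturases SCD, FADS1 and FADS2 and the citrate lyase ACLY above 0 and FASN, ELOVL6 and ACACA below. ELOVL6 was at 68.8 and 69.7 CPM in ST and at 58.3 and 52.8 CPM in AL, without overlap. Its log2 fold change of −0.32 did not pass (adjusted p = 0.0724). It was called lower by edgeR's exact test (adjusted p = 0.000131) and with AL and ST fitted alone (0.00196). These settings called 33.1% and 32.6% of all genes. Over all genes tested the medians were 0.00, 0.00 and −0.001.

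Around the members, 107 genes of sterol and fatty acid metabolism were listed in 5 groups, of which 102 were tested. In AL against ST 12 were called higher and 6 lower, where 7.63% and 10.3% of all genes were. In AL_DCF against ST it was 14 and 6, where 8.49% and 9.83% of all genes were, and in AL_DCF against ST_DCF 12 and 7, where 9.38% and 11.4% were. In ST_DCF against ST, AL_DCF against AL and the interaction 0 were called by edgeR's quasi-likelihood test, with 14, 7 and 9 at an unadjusted p under 0.05, where 10%, 12.6% and 11.3% of all genes were. The counts of the single groups given next are read against the same shares of all genes. In ST_DCF against ST, AL_DCF against AL and the interaction, DESeq2 called 2, 2 and 1, where it called 0.418%, 1.5% and 0.854% of all genes. The exact test called 2 and 2 of the listed genes in the first and second, where it called 0.538% and 2.13% of all genes. Their median log2 fold change was 0.06 in AL, 0.06 in AL_DCF and 0.02 in ST_DCF against ST.

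Among 20 genes of SREBP maturation and turnover, 1 was called higher and 1 lower in AL against ST, where 7.63% and 10.3% of all genes were. In AL_DCF against ST 2 were called higher and 0 lower, where 8.49% and 9.83% of all genes were. SEC23A, a subunit of the COPII coat that buds vesicles from the endoplasmic reticulum, was higher in both AL conditions. It had 123 and 121 CPM in ST, 170 and 167 CPM in AL, and 169 and 167 CPM in AL_DCF. The log2 fold changes from ST were 0.47 ± 0.0715 (adjusted p = 0.000947) and 0.46 ± 0.0715 (adjusted p = 0.00109). FBXW7, part of a ubiquitin ligase that degrades nuclear SREBP, had 18.0 and 18.0 CPM in ST and 12.6 and 14.1 CPM in AL (log2 fold change −0.43, adjusted p = 0.0238). It was not called in AL_DCF against ST. LPIN1 was called higher there, with 60.0 and 60.2 CPM in ST and 72.9 and 77.7 CPM in AL_DCF (log2 fold change 0.325, adjusted p = 0.0252). In AL_DCF against ST_DCF, RNF139 and UBE2G2, a ligase and a conjugating enzyme of the endoplasmic reticulum, were higher by 0.35 and 0.27 on the log2 scale.

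Among 22 genes of sterol uptake, transport and storage, 2 were higher and 0 lower in AL, and 4 were higher and 1 lower in AL_DCF, both from edgeR's quasi-likelihood test against ST, where 7.63% and 10.3% of all genes were called higher and lower in AL and 8.49% and 9.83% in AL_DCF. In AL 5 and in AL_DCF 10 of the 22 had an unadjusted p under 0.05, where 31.3% and 32.1% of all genes did. ABCG1, a sterol exporter and target of the oxysterol receptor LXR, had 6.52 and 7.04 CPM in ST, 8.83 and 7.85 CPM in ST_DCF, 11.1 and 15.3 CPM in AL, and 18.7 and 13 CPM in AL_DCF. The AL libraries were all above the static ones, with log2 fold changes of 0.96 (adjusted p = 0.00619) in AL and 1.22 (adjusted p = 0.00144) in AL_DCF against ST. LPCAT3, a phospholipid acyltransferase and LXR target, was higher in AL (log2 fold change 0.70, adjusted p = 0.000696) and AL_DCF (0.53, adjusted p = 0.00405). Of 12 LXR receptors and targets tested, ABCG1 and LPCAT3 were the 2 called in either comparison. ABCA1, another exporter, was higher in AL_DCF than in ST_DCF at 3.11 and 3.33 against 1.80 and 1.79 CPM (log2 fold change 0.84, adjusted p = 0.0188). VLDLR, a lipoprotein receptor, was higher in AL (0.40, adjusted p = 0.0115).

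The 27 further fatty acid genes included 4 called higher and 4 called lower in AL, where 7.63% and 10.3% of all genes were. SLC25A1, which exports mitochondrial citrate for lipid synthesis, had 304 and 286 CPM in ST and 404 and 428 CPM in AL (log2 fold change 0.50, adjusted p = 0.00304). ELOVL7, an elongase, had 12.4 and 13.5 CPM in ST and 7.42 and 7.25 CPM in AL (log2 fold change −0.82, adjusted p = 0.0018). MID1IP1, which promotes the activity of acetyl-CoA carboxylase, was lower as well (−0.45, adjusted p = 0.00681). In AL_DCF against ST_DCF, 1 was called higher and 5 were called lower, where 9.38% and 11.4% of all genes were. Those lower included ACSS2, the acetyl-CoA synthetase, with 226 and 186 CPM in ST_DCF and 135 and 138 CPM in AL_DCF (log2 fold change −0.59, adjusted p = 0.00166), and ACSL5, an acyl-CoA synthetase (−0.87, adjusted p = 0.00139). In ACSS2 as in FASN, ST_DCF replicate 1 was the highest of the 8 libraries. Of 23 genes of isoprenoid branches and accessory sterol enzymes, 4 were called higher and 1 lower in AL against ST, where 7.63% and 10.3% of all genes were, and POR and CYB5R3, which pass electrons to sterol enzymes, were higher by 0.30 each on the log2 scale (adjusted p = 0.0403 and 0.0234).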

How the data were processed

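RNA sequencing libraries of 4 conditions, 2 each, were analysed from 1 deposited table of 18430 genes. Per the submitters' processing notes, FastQC 0.11.7 served for quality control, Trimmomatic 0.38 for trimming, HISAT2 2.1.0 (with Bowtie2 2.3.5.1) for mapping to GRCh38 and StringTie 2.1.3b for assembly and counting. The read count values were deposited by the authors without normalization, and the FPKM and TPM values were computed by the authors from transcript length and depth. The log2 values, fold change score and p-value columns deposited by the authors hold their normalized values and own comparisons and were not used. How the authors filtered genes is not given in the sources used here. In the table, 0 genes had a count of 0 in a library.

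Counts were tested with edgeR 4.0.16 in R 4.3.3, with filterByExpr by condition, TMM factors and 1 quasi-likelihood fit of 4 conditions to all 8 libraries (4 residual and 7.50 prior degrees of freedom). P-values were adjusted by Benjamini-Hochberg over 17445 genes, and every adjusted p comes from this test unless another tool is named. The common biological coefficient of variation was 9.48%. With 2 libraries against 2, an exact two-sided permutation test cannot go below 0.333, so none was used for single genes. The p-values weigh a difference between conditions against the spread between these samples, which the fit estimates in part from other genes. No replicate block was used: correlations of replicate differences between conditions ran from −0.102 to 0.0985 over all genes and from −0.478 (ST with AL_DCF) to 0.342 (ST with AL) over the members. The labels name no batch shared by a number and the correlations were not all over 0.1, so the numbers were not taken to pair the samples. The members and lists were chosen with earlier results of these data known, so no p is given over a list. Values per library are given for members called in any comparison and for SREBF1, SREBF2, SCAP, INSIG1 and INSIG2, and up to 3 genes of each of 5 further lists were eligible per comparison. Other genes named were picked after their values were seen. Alternatives were DESeq2 1.42.0, edgeR's exact test, limma 3.58.1 on log2(FPKM + 1) or log2(FPKM + 0.1), other factors and filters, the compared pair alone, a replicate block and leaving out each library. Positions are those of RefSeq. The tests were also tried on simulated counts.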

Additional observations from a re-analysis of the deposited data

How the results depend on the processing

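The number of members called, like the share of all genes called, depended on the tool more than on the scaling. In AL against ST 4 members were called, and 13 with the libraries of the compared pair alone and 11 with edgeR's exact test. It was 1 with a fold of 1.5 on top and 0 at the study's thresholds of a fold of 2 and an unadjusted p. Of all genes, 17.9%, 32.6%, 33.1%, 9.33% and 6.6% were called in the same order. In AL_DCF against ST 6 members were called, and 10, 1 and 0 with the exact test, the fold of 1.5 and the study's thresholds. The shares of all genes were 18.3%, 22.4%, 9.06% and 6.55%. In AL_DCF against ST_DCF 5 members were called, and 2, 1 and 0 with the pair alone, the fold of 1.5 and the study's thresholds. The shares of all genes were 20.7%, 11.1%, 10.1% and 6.86%. In ST_DCF against ST 0 members were called, and 2 with DESeq2 and 1 with the exact test. The shares of all genes were 0.00573%, 0.418% and 0.538%. Leaving out 1 library at a time gave 3 to 7 called members in AL against ST, 2 to 9 in AL_DCF against ST, 0 to 2 in ST_DCF against ST, 0 to 0 in AL_DCF against AL, 2 to 7 in AL_DCF against ST_DCF and 0 to 1 in the interaction, the lone library of a condition then being taken to vary like the rest. The share of all genes called shifted as well in each of these comparisons when 1 library was left out. These ranges are therefore not particular to the members. The cause of these shifts was not tested. Leaving aside the fold of 1.5 and the study's thresholds, LSS and FADS2 stayed called against ST in all 18 other alternatives in AL and all 19 in AL_DCF, and FADS1 in all 18 in AL_DCF against ST_DCF. Of 1017 values of single genes under alternatives, 910 kept direction and call, 53 lost a call, 53 gained one and 1 reversed, INSIG1 in AL against ST, which ran from −0.135 without AL replicate 1 to 0.371 without AL replicate 2.

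With the replicate number as a block, 4 members were called in AL, 5 in AL_DCF and 0 in ST_DCF against ST, 0 in AL_DCF against AL, 5 in AL_DCF against ST_DCF and 0 in the interaction. These were not the same members: FDPS and ACAT2 lost their calls in AL_DCF against ST and PMVK gained one (adjusted p = 0.0446), and in AL_DCF against ST_DCF ACAT2 lost its call and PMVK gained one (0.0427). With the AL_DCF numbers crossed, a setting chosen after seeing the data, 6 were called in AL_DCF against ST, where 19.7% of all genes were. With the block as numbered, 16.7% of all genes were called in AL, 16.9% in AL_DCF and 0% in ST_DCF against ST. It was 0.315% in AL_DCF against AL, 19.2% in AL_DCF against ST_DCF and 0.0459% in the interaction.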
